A study of Homo sapiens with 30 samples.

Results

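RN7SK, RN7SL1, RN7SL2, RMRP and RPPH1 are genes of abundant structural RNAs made by RNA polymerase III (Pol III). They were taken by symbol from the run-on count table, where they are 5 of 26475 genes, and their loci were looked up in the deposited peak lists. The data come from HT1080, a human fibrosarcoma cell line, at passages 10 to 15. Nuclear run-on (GRO-seq) lets engaged polymerases extend their transcripts in isolated nuclei, and the RNA was pulled down with an antibody against bromodeoxyuridine. The run-on libraries form 6 groups of 3 repeats: hNABP2 (hSSB1) KO, hNABP1 (hSSB2) KO and WT cells, each run with nucleotides (with NTP) and each without them (no NTP). A further 2 ChIP-seq libraries used a homemade hNABP2 antibody in WT cells, and 4 DRIP-seq libraries, made by pulldown of RNA:DNA hybrids with the antibody S9.6, came from hNABP2 KO and WT cells with 2 repeats each. No cells were treated. The IgG libraries and the RNase H libraries were not analysed here. hNABP2 and hNABP1 are single-stranded DNA binding proteins. The sources used here do not give how the knockouts were made or whether each line is a single clone. Nothing states that the repeats came from separate cultures, so p-values measure the spread between these libraries, which may be technical.

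Each of the 5 RNAs is the core of a ribonucleoprotein. 7SK, from RN7SK, holds the elongation kinase P-TEFb in an inactive particle with HEXIM, LARP7 and MEPCE. 7SL, from the near-identical genes RN7SL1 and RN7SL2, is the scaffold of the signal recognition particle that directs nascent secretory proteins to the endoplasmic reticulum. RPPH1 is the catalytic RNA of RNase P, which trims the leader from tRNA precursors, and RMRP is the related RNA of RNase MRP, which acts in ribosomal RNA processing. RN7SK, RMRP and RPPH1 have Pol III promoters that lie upstream of the gene, built from a TATA box, a proximal sequence element read by the SNAPc complex and a distal element. The 7SL genes also carry promoter elements inside the transcribed part.

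The upstream regions of RPPH1 and RMRP are shown. Both genes carried an hNABP2 ChIP peak in repeat 1, and each shares its upstream region with a divergent protein-coding gene. The windows are the RefSeq promoter entries of those neighbours (GRCh38.p14), PARP2 for RPPH1 and CCDC107 for RMRP, turned to read in the direction of the RNA gene. Capitals mark matches to the motifs searched on both strands. Positions count from the first base of the RNA gene.
RPPH1 upstream window, chr14:20343385-20343684, minus strand, -273 to 27: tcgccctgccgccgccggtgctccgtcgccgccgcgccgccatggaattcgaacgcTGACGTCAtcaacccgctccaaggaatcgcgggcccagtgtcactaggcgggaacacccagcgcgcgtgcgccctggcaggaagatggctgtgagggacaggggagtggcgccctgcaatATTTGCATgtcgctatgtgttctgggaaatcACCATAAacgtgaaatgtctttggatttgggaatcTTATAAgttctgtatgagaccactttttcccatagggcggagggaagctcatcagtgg
RMRP upstream window, chr9:35658042-35658341, minus strand, -322 to -23: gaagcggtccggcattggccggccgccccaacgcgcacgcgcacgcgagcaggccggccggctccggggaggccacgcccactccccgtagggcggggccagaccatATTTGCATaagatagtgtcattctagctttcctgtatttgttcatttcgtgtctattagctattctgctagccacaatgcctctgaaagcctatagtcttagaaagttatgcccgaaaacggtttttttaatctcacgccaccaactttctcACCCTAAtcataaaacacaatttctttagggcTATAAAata
The RPPH1 window held the octamer ATTTGCAT at -97 to -90, the core letters of the proximal element (ACCNTNA) at -66 to -60 and the cAMP response element TGACGTCA at -217 to -210. It held no TATAAA; the shorter TATAA, added after the windows were seen, stood at -30 to -26, overlapping its match on the other strand at -31 to -27. The RMRP window held TATAAA at -31 to -26, ACCNTNA at -63 to -57 and ATTTGCAT at -215 to -208. The E-box CACGTG was in neither window, and TGACGTCA was not in that of RMRP. Of 35116 RefSeq promoter windows of the same length, 11.5% held TATAAA, 20.4% TATAA, 27.1% ACCNTNA, 1.77% ATTTGCAT, 1.85% TGACGTCA and 7.26% CACGTG. A match describes the letters only. The start of RPPH1 lies 224 bases from that of PARP2, and the start of RMRP lies 273 bases from that of CCDC107. RN7SK also had a ChIP peak in repeat 1 and a divergent neighbour, GSTA4, whose start is 336 bases away. The window available from GSTA4 is not printed. It ended at base -86, short of the bases next to RN7SK, and held none of the motifs.

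RN7SK lies on chromosome 6 at 52995620 to 52995951 (332 bases, plus strand), RMRP on chromosome 9 at 35657750 to 35658019 (270 bases, minus strand) and RPPH1 on chromosome 14 at 20343071 to 20343411 (341 bases, minus strand). RN7SL1, at 49586580 to 49586878 on the plus strand, and RN7SL2, at 49862551 to 49862849 on the minus strand, are both on chromosome 14 and both 299 bases long. Coordinates are RefSeq genes of GRCh38.p14; the files use hg38. RN7SL1 lies inside the annotated span of RPS29, a ribosomal protein gene with 14 counts over all libraries, and RN7SL2 inside that of LOC105378179. RN7SL1, RN7SL2 and the many genomic copies of 7SK and 7SL share sequence, so the split of reads between them is uncertain. The sources used here do not give the strand setting of the counting, so reads of overlapping genes cannot be told apart.

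The run-on libraries were shallow, with 5272 to 164357 counts in genes. Repeats 1 and 2 held 5272 to 19581 counts and repeat 3 held 19247 to 164357. Together the 5 RNAs took 0.132% to 3.74% of a library, with a median of 1.11%. In repeats 1 and 2 the share was 0.501% to 2.72%, and in repeat 3 it was 0.132% to 3.74%. Markers of mesenchymal cells, the lineage of a fibrosarcoma, had counts in 10 of 10 genes and summed to 0.145% to 4.19% of a library, but COL5A1 held 2806 of their 3364 counts. Epithelial markers had counts in 5 of 5 genes and summed to 0.0104% to 0.284%, and leukocyte markers in 4 of 5 with 0% to 0.0208%. The targeted genes did not separate the genotypes. NABP2 had 4, 3 and 15 counts in hNABP2 KO libraries with NTP (repeats 1, 2 and 3), against 4, 0 and 8 in WT. NABP1 had 0, 1 and 18 counts in hNABP1 KO libraries with NTP, against 1, 0 and 19 in WT. These counts therefore do not check the labels. In bulk nuclei, fewer nuclei and less RNA per nucleus cannot be told apart.

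RN7SK and RMRP were among the best counted genes of the table and the other 3 RNAs were sparse. RN7SK had 1597 counts and RMRP 1350, both present in 18 of 18 libraries. RN7SL2 had 142 counts, RN7SL1 134 and RPPH1 70. Ranked by counts within a library, RN7SK stood between places 2 and 121 and RMRP between 3 and 444. The other 3 were listed at 0 in 11 of their library values, which allowed a share of up to 0.00378% to 0.0510% by depth (3 counts of the total, counting error only). As CPM (counts scaled to library totals of 1e6) per kilobase of gene, the median level over 18 libraries was 18411 for RMRP, 6933 for RN7SK, 471 for RN7SL1, 421 for RN7SL2 and 307 for RPPH1. RMRP was above RN7SK in 13 of 18 libraries, and RMRP was above both 7SL genes and RPPH1 in all 18. RN7SK was above RPPH1 in 18, above RN7SL1 in 17 and above RN7SL2 in 16. RN7SL1, RN7SL2 and RPPH1 did not keep an order: RN7SL1 was above RN7SL2 in 6 libraries, equal in 3 and below in 9.

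**Figure D1:**
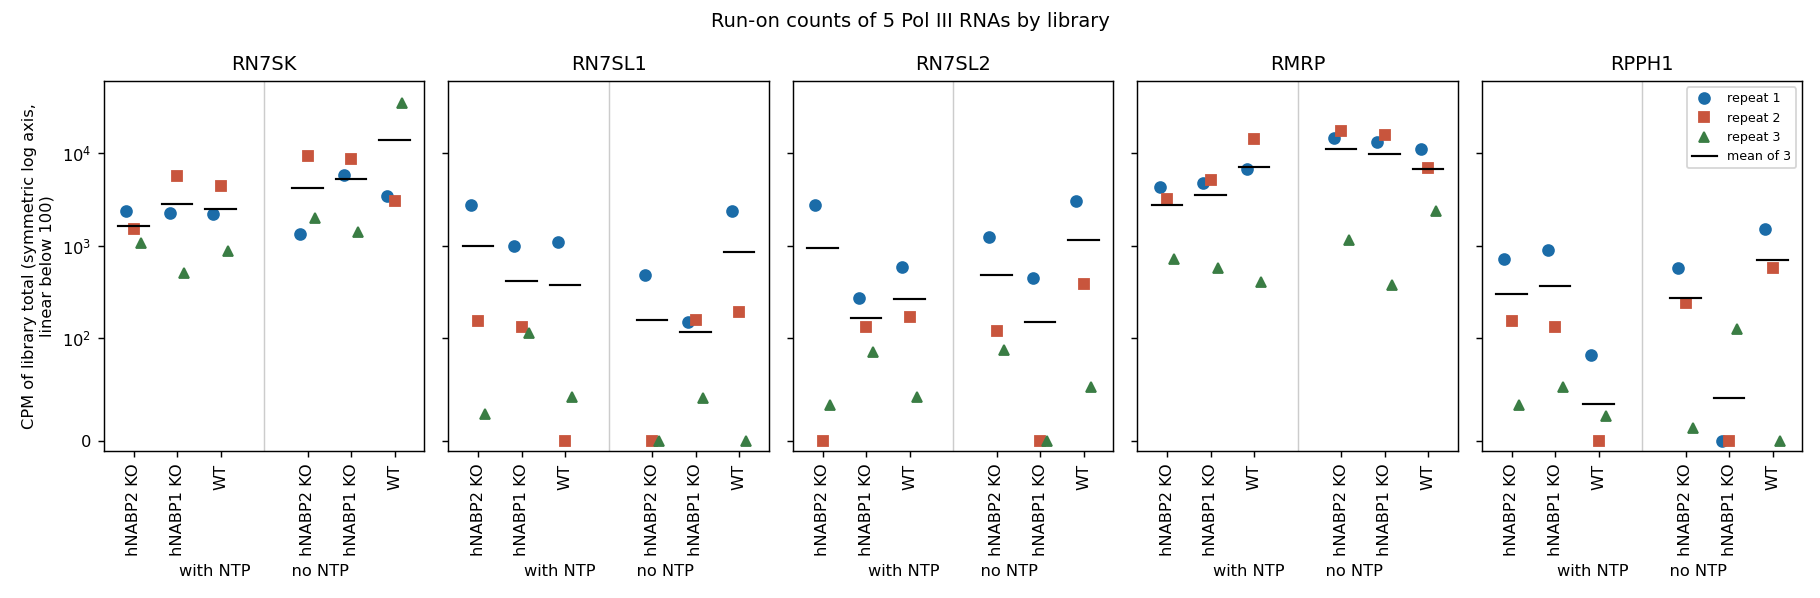
Run-on level of each RNA in CPM of the library total (symmetric log axis, linear below 100) in hNABP2 KO, hNABP1 KO and WT libraries with NTP (left of the grey line) and without (right). Points are libraries, shaped and coloured by repeat, and lines are means of 3; RN7SK and RMRP are well above 0 in every library, repeat 3 is low for RMRP in all 6 groups, and RN7SK in WT no NTP repeat 3 stands at 35018 CPM.

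7SK showed no called change between genotypes. With NTP, RN7SK had 2349, 1519.5 and 1052 CPM in hNABP2 KO libraries, 2254, 5693 and 502 CPM in hNABP1 KO libraries, and 2170.1, 4419.5 and 864 CPM in WT libraries (repeats 1, 2 and 3). The groups overlapped, and repeat 3 was the lowest in each. The means were 1640.4 ± 657 CPM in hNABP2 KO, 2816 ± 2641 CPM in hNABP1 KO and 2484.5 ± 1799 CPM in WT (SD, n = 3). The edgeR quasi-likelihood fit of the 9 libraries with NTP gave log2 fold changes of -0.22 (SE 0.714, adjusted p = 0.990) for hNABP2 KO against WT and -0.24 (SE 0.716, adjusted p = 1.00) for hNABP1 KO against WT, both with the same WT libraries. Both values change sign under settings given at the end, so no direction can be read.

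Without NTP, 1 library dominated RN7SK. It had 1328, 9289 and 1989 CPM in hNABP2 KO libraries, 5825, 8629 and 1383 CPM in hNABP1 KO libraries, and 3471, 3035 and 35018 CPM in WT libraries. WT no NTP repeat 3 held 674 RN7SK counts, 42.2% of all RN7SK counts in the table and 93.4% of those in WT no NTP. RNA5S9, a 5S ribosomal RNA gene also made by Pol III, had 82 counts in that library (0.426% of its total) and at most 9 in any other. RMRP had 45 counts there, or 2338 CPM, which was above its level in the other repeat 3 libraries (377 to 1146 CPM). RN7SL2 had 1 count, and RN7SL1 and RPPH1 had 0, so the high level of RN7SK was not shared by these RNAs. The ratio of RN7SK to RMRP per base of gene was 12.2 in that library, 2.98 in the next highest, and had a median of 0.436. The ratio was above 1 in 5 of 18 libraries, all 5 of them from repeat 3.

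Against these no NTP libraries, RN7SK with NTP had a log2 fold change of -2.89 in WT (SE 1.2, edgeR adjusted p = 0.997), of -0.73 in hNABP2 KO (SE 1.12, adjusted p = 0.998) and of -0.20 in hNABP1 KO (SE 1.12, adjusted p = 0.982). Without WT no NTP repeat 3, the WT value became 0.37. Between genotypes without NTP the value was -2.33 (SE 1.17, edgeR adjusted p = 0.999) for hNABP2 KO against WT and -2.88 (SE 1.2, adjusted p = 0.996) for hNABP1 KO against WT. Without that library these became 0.95 and 0.44.

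RMRP also showed no called change. With NTP it had 4341, 3191 and 716 CPM in hNABP2 KO libraries, 4779, 5164 and 571 CPM in hNABP1 KO libraries, and 6761, 14278 and 402 CPM in WT libraries. In repeats 1 and 2 both knockouts were below WT, and in repeat 3 both were above it. The means were 2749 ± 1852 CPM in hNABP2 KO, 3504 ± 2547 CPM in hNABP1 KO and 7147 ± 6946 CPM in WT (SD, n = 3). The log2 fold changes against WT were -0.78 (SE 0.663, edgeR adjusted p = 0.990) in hNABP2 KO and -0.65 (SE 0.663, adjusted p = 1.00) in hNABP1 KO. Both kept their sign in every alternative fit run, which those of RN7SK and RN7SL1 against WT did not, and neither passed the test.

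RMRP was also abundant in the libraries made without nucleotides. It had 14605, 17506 and 1146 CPM in hNABP2 KO libraries without NTP, 13144, 15689 and 377 CPM in hNABP1 KO and 11063, 6829 and 2338 CPM in WT. With NTP it was the higher of the same-numbered libraries in 0 of 3 repeats in hNABP2 KO, in 1 of 3 in hNABP1 KO and in 1 of 3 in WT. The log2 fold change of with NTP against no NTP was -1.34 in hNABP2 KO (SE 0.964, edgeR adjusted p = 0.998), -0.67 in hNABP1 KO (SE 0.955, adjusted p = 0.982) and -0.005 in WT (SE 0.949, adjusted p = 0.997). RN7SK likewise was higher with NTP in 1 of 3 repeats in hNABP2 KO, 0 of 3 in hNABP1 KO and 1 of 3 in WT. In most same-numbered pairs the share of either RNA was thus lower with nucleotides than without, and no difference passed the test.

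The 7SL counts came mostly from repeat 1. With NTP, RN7SL1 had 54, 1 and 3 counts in hNABP2 KO, 11, 1 and 13 in hNABP1 KO, and 13, 0 and 7 in WT. RN7SL2 had 54, 0 and 4 counts in hNABP2 KO, 3, 1 and 10 in hNABP1 KO, and 7, 1 and 7 in WT. The single hNABP2 KO library of repeat 1 held 40.3% of all RN7SL1 counts and 38.0% of all RN7SL2 counts. Over all libraries RN7SL1 took 48.6% of the counts of the pair (95% exact binomial interval 42.5% to 54.6%, counting error only), so the table divided 7SL reads about evenly between the copies.

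Without NTP, RN7SL1 had 5, 0 and 0 counts in hNABP2 KO, 1, 1 and 1 in hNABP1 KO, and 22, 1 and 0 in WT. RN7SL2 had 13, 1 and 7 counts in hNABP2 KO, 3, 0 and 0 in hNABP1 KO, and 28, 2 and 1 in WT. Each 7SL gene was thus above 20 counts in the repeat 1 libraries of hNABP2 KO with NTP and WT without NTP, and nowhere else. In CPM with NTP, RN7SL1 averaged 979 ± 1542 in hNABP2 KO, 412 ± 502 in hNABP1 KO and 376 ± 615 in WT, and RN7SL2 averaged 931 ± 1582, 163 ± 95.7 and 266 ± 283 in the same order (SD, n = 3). The SD exceeded the mean in 5 of these 6 values.

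RN7SL1 had a log2 fold change of 1.31 (SE 1.42, edgeR adjusted p = 0.990) in hNABP2 KO against WT and of 0.41 (SE 1.45, adjusted p = 1.00) in hNABP1 KO against WT, both with NTP. Without the hNABP2 KO library of repeat 1 the first value became -2.18. With NTP against no NTP, RN7SL1 gave 3.26 in hNABP2 KO (SE 1.73, edgeR adjusted p = 0.998), 3.14 in hNABP1 KO (SE 1.87, adjusted p = 0.982) and -0.65 in WT (SE 1.56, adjusted p = 0.997). RN7SL2 gave 1.31 in hNABP2 KO (SE 1.43, edgeR adjusted p = 0.998), 1.96 in hNABP1 KO (SE 1.79, adjusted p = 0.982) and -1.61 in WT (SE 1.50, adjusted p = 0.997). The difference of these effects between genotypes was tested as an interaction and no RNA passed. RN7SL2 did not pass the count filter of the 9-library fit. Its log2 CPM was taken with 0.5 added to each count before scaling. The difference in its mean with NTP was 0.06 for hNABP2 KO against WT and -0.12 for hNABP1 KO against WT, each with p = 1.0 by a two-sided exact permutation test.

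RPPH1 was the sparsest of the RNAs and passed the count filter of neither fit. With NTP it had 14, 1 and 4 counts in hNABP2 KO, 10, 1 and 6 in hNABP1 KO, and 1, 0 and 4 in WT. In CPM both knockouts were above WT in 3 of 3 repeats. The means were 300.5 ± 364 CPM in hNABP2 KO, 362 ± 469 CPM in hNABP1 KO and 35.9 ± 42.9 CPM in WT (SD, n = 3), and the ranges overlapped. The difference in mean log2 CPM was taken with 0.5 added to each count. It was 1.50 in hNABP2 KO against WT (exact permutation p = 0.4) and 1.73 in hNABP1 KO against WT (exact permutation p = 0.3). These permutations did not pair libraries by repeat number, so the spread between repeats enters the p-values and the overlap of ranges. Without NTP it had 6, 2 and 1 counts in hNABP2 KO, 0, 0 and 3 in hNABP1 KO, and 14, 3 and 0 in WT. WT was then the highest in repeats 1 and 2 and listed at 0 in repeat 3. With NTP against no NTP, the difference was 0.31 in hNABP2 KO, 1.21 in hNABP1 KO and -2.18 in WT (exact permutation p = 0.9, 0.5 and 0.4). Without WT no NTP repeat 3, where RPPH1 was listed at 0, the WT value became -3.95. Its exact permutation p was 0.2, the smallest that 3 against 2 libraries allow. That library was left out after seeing the data and held the lowest WT no NTP value. The larger difference follows from that choice.

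**Figure D2:**
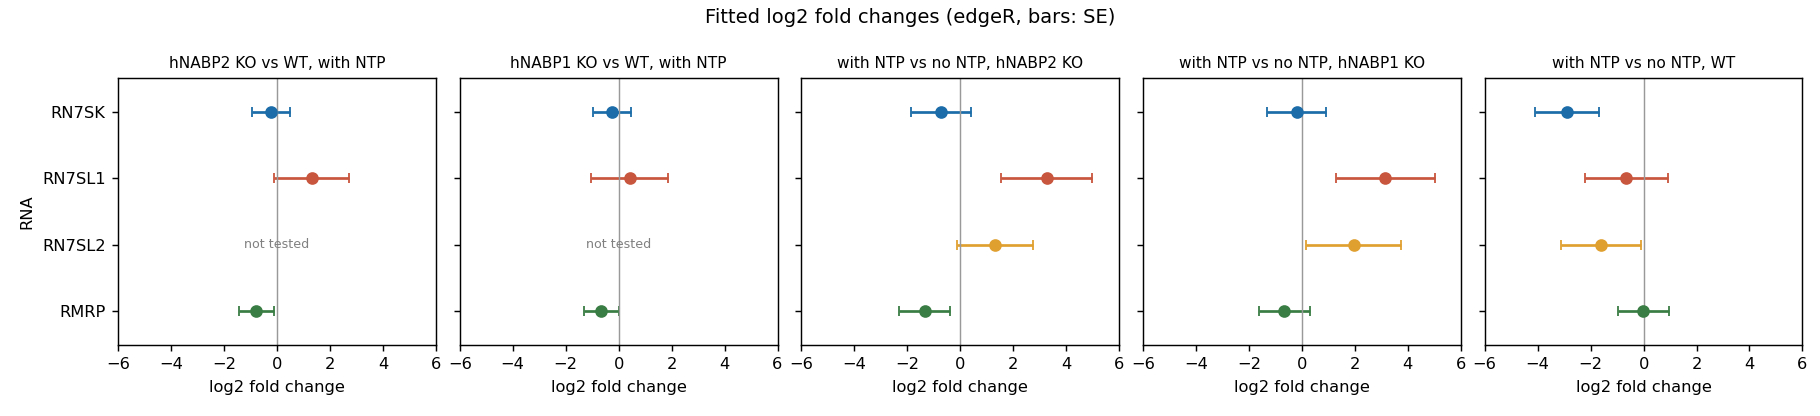
Log2 fold changes of the tested RNAs from the edgeR fits (points) with their standard errors (bars) for hNABP2 KO and hNABP1 KO against WT with NTP, and for with NTP against no NTP in hNABP2 KO, hNABP1 KO and WT. Bars of SE 0.663 to 1.87 are wide beside the changes, RPPH1 passed the count filter of neither fit, and no RNA was called in any of the 5 comparisons.

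Over the 10 comparisons fitted (genotypes with and without NTP, the effect of NTP and the interactions), 0 of 3 or 4 tested RNAs were called at an adjusted p of 0.05. The share called among all genes tested was 0% in each comparison, with 129 genes tested in the fit of 9 libraries and 211 in that of 18. DESeq2 and limma voom called 0 of the RNAs as well. At an unadjusted edgeR p under 0.05 in the main fits, 1 RNA passed in 2 comparisons. It was RN7SK both times, in with NTP against no NTP in WT (unadjusted p = 0.0261) and in hNABP1 KO against WT without NTP (unadjusted p = 0.0270), and both rested on WT no NTP repeat 3. By single-gene exact permutation tests of 3 against 3 libraries, which cannot go below 0.1, the smallest p of 40 tests was 0.3 and its Benjamini-Hochberg value 1.0. In 0 of these 40 did the CPM ranges of the groups fail to overlap; among all genes with 10 or more counts, the share without overlap was, with NTP, 2.01% for hNABP2 KO against WT, 1.91% for hNABP1 KO against WT and 2.54% for hNABP2 KO against hNABP1 KO. It was 2.25%, 2.6% and 2.1% for with NTP against no NTP in hNABP2 KO, hNABP1 KO and WT, and, without NTP, 1.91% for hNABP2 KO and 1.46% for hNABP1 KO against WT.

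Likeness was taken across 18 libraries from log2 CPM, with 0.5 added to each count and repeat means removed. The genes most like RN7SK among 607 compared were B4GALT1-AS1 (Pearson r = 0.729, 72 counts), CRYZ (r = 0.697, 52 counts) and RMRP (r = 0.692). The genes most like RMRP were PLEC (r = 0.745, 664 counts), CRYZ (r = 0.697) and RN7SK. These values describe libraries that share depth and repeat, and the counts of CRYZ and B4GALT1-AS1 are small.

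In WT cells, hNABP2 ChIP repeat 1 placed a peak over RPPH1, RN7SK and RMRP, the 3 RNAs with upstream promoters, and none near either 7SL gene. The RPPH1 peak, at 20343131 to 20343319, had a fold of 6.66 and a -log10 q of 34.0, and ranked 290 by fold and 1075 by q of 10068 peaks. The RN7SK peak, at 52995700 to 52995864, had a fold of 4.32 and a -log10 q of 8.32. The RMRP peak, at 35657772 to 35657995, had a fold of 2.59 and a -log10 q of 13.4. Fold and q are the authors' own values per peak, and the medians of the list were 3.21 and 12.1. RPPH1 thus stood high in the list, RN7SK was above the median in fold and below it in q, and RMRP was below the median in fold and above it in q. Of 9438 other RefSeq genes of at most 400 bases, 3.25% had a peak of that list within 1 kb.

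All 3 peaks lay wholly inside the transcribed part, with summits 175, 203 and 230 bases from the start of RPPH1, RN7SK and RMRP. They covered none of the upstream windows printed above. A second peak near RMRP, at 35658299 to 35658744 with a fold of 3.21 and a -log10 q of 14.6, lay at the start of CCDC107 and covered 43 bases of the far end of the RMRP window. The nearest peaks to RN7SL1 and RN7SL2 were 11.8 kb and 29.8 kb away.

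ChIP repeat 2 had no peak within 1 kb of any of the 5 genes. Its nearest peaks were 12.9 kb from RN7SL1, 52.0 kb from RMRP, 94.2 kb from RN7SL2, 418 kb from RN7SK and 2714 kb from RPPH1. That list held 2832 peaks, and 0.657% of genes of at most 400 bases had one within 1 kb. The peaks at RPPH1, RN7SK and RMRP therefore come from 1 of 2 repeats. The sources used here do not say whether the IgG libraries served as control in the peak calling.

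**Figure D3:**
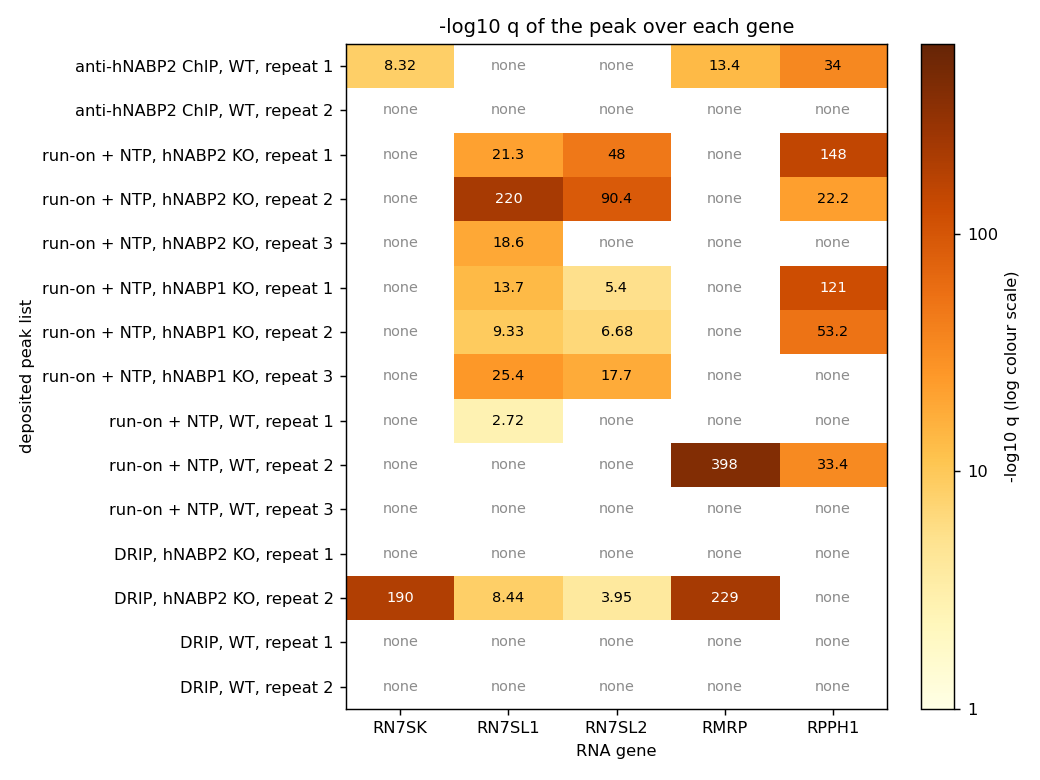
The -log10 q of the peak over each RNA gene (columns) in each of the 15 deposited peak lists (rows), with colour on a log scale and "none" where the list has no peak. ChIP peaks appear in repeat 1 only, run-on peaks mostly at RN7SL1, RN7SL2 and RPPH1, and DRIP peaks in hNABP2 KO repeat 2 only.

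In the run-on peak lists of libraries with NTP, the sparse RNAs carried the peaks and the well counted ones did not. Peaks lay over RN7SL1 in 7 of 9 lists, over RN7SL2 in 5, over RPPH1 in 5, over RMRP in 1 and over RN7SK in 0. In hNABP2 KO lists 7 of 15 pairs of list and gene had a peak, in hNABP1 KO lists 8 of 15 and in WT lists 3 of 15. By list, 1 to 3 genes had a peak in hNABP2 KO, 2 to 3 in hNABP1 KO and 0 to 2 in WT, so the groups overlapped or touched. The lists held 94 to 9965 peaks. The share of genes of at most 400 bases with a peak within 1 kb was 0.752%, 0.36% and 0.0212% in hNABP2 KO repeats 1, 2 and 3, 0.53%, 0.117% and 2.77% in hNABP1 KO, and 0.35%, 0.18% and 0.053% in WT.

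RPPH1 had a run-on peak in repeats 1 and 2 of both knockouts and in repeat 2 of WT. The -log10 q was 148 and 22.2 in hNABP2 KO, 121 and 53.2 in hNABP1 KO and 33.4 in WT. The folds were 2.53 and 1.64 in hNABP2 KO, 2.2 and 1.90 in hNABP1 KO and 2.19 in WT, so the peaks varied widely in q and little in fold. RN7SL1 had a peak in all 3 repeats of both knockouts and in repeat 1 of WT, where the -log10 q was 2.72 and the fold 1.2. Its strongest, in hNABP2 KO repeat 2, had a fold of 12.4 and a -log10 q of 220.3, and the RN7SL2 peak of that list had a fold of 5.62 and a -log10 q of 90.4. The one RMRP peak, in WT repeat 2, had the highest -log10 q of its list, 398, with a fold of 2.57. By fold it ranked 192 of 195, and the median fold of that list was 3.06. Only the RN7SL1 and RN7SL2 peaks of hNABP2 KO repeat 2 had a fold above the median of their list (3.12). Every other run-on peak at these genes was below the median fold of its list.

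**Figure D4:**
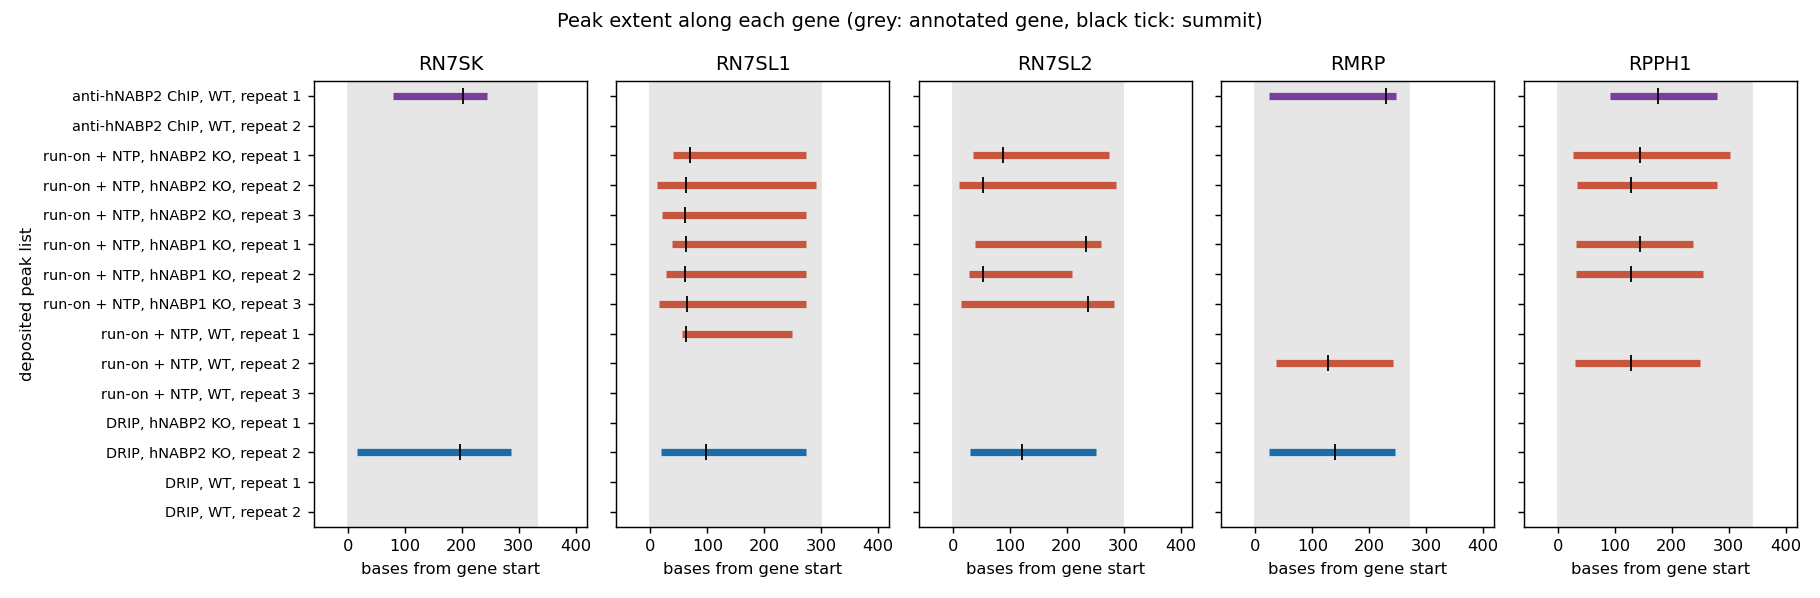
Extent of each peak in bases from the start of its RNA gene (horizontal axis), by deposited list (vertical axis); grey is the annotated gene and the black tick the summit, with ChIP in purple, run-on in red and DRIP in blue. Only peaks that overlap the gene are drawn; each of these lies inside it, and the RN7SL1 run-on summits fall between 61 and 70 bases from the start.

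Every run-on peak over these genes lay inside the annotated gene. The summits of the 7 RN7SL1 peaks stood 61 to 70 bases from the start. Those of the RN7SL2 peaks fell at 52, 52 and 88 bases in 3 lists and at 234 and 237 bases in the others. Those of RPPH1 fell at 128 to 144 bases, and that of RMRP at 127 bases.

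Peaks and counts did not go together. The 18 pairs of list and gene with a run-on peak had 0 to 84 counts in the table (median 6.5), and 9 of the 18 had at most 3. The 27 pairs without one had 0 to 142 counts (median 26.0). The strongest RN7SL1 and RN7SL2 peaks, in hNABP2 KO repeat 2, stood beside 1 and 0 counts in the same library. The sources used here do not say whether the peaks and the table came from the same aligned reads. Which libraries, if any, served as control for the run-on peaks is not given either. How copies of 7SK and 7SL were treated in the peaks and in the table was not tested.

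**Figure D5:**
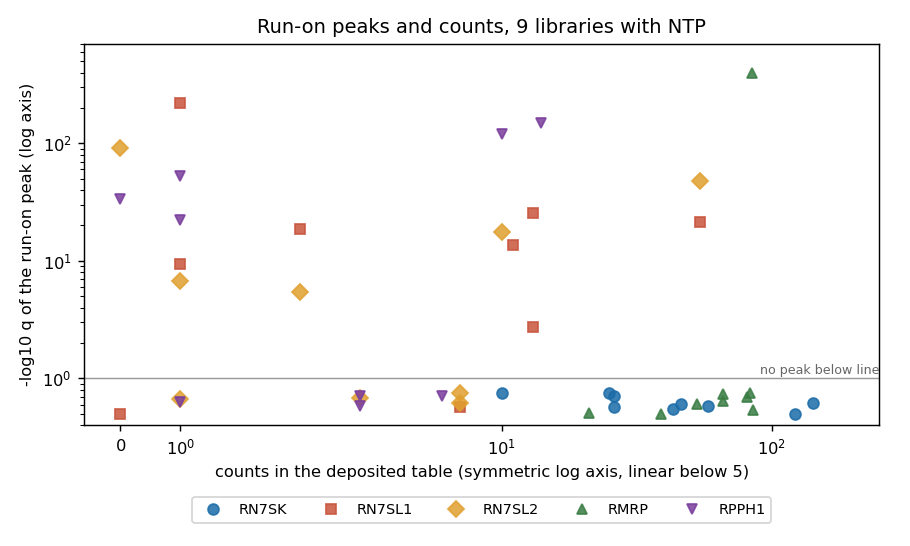
Counts of each RNA gene in the 9 run-on libraries with NTP (horizontal, symmetric log axis, linear below 5) against the -log10 q of its peak in the same library (vertical, log axis). Points below the line have no peak and are spread for display; RN7SK and RMRP, with the highest counts, sit below it except for RMRP in WT repeat 2 at 398.

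DRIP peaks lay over 4 of the 5 genes in 1 of the 2 hNABP2 KO DRIP libraries and over none in WT. As the RNase H libraries were not analysed here, whether these peaks are RNA:DNA hybrids was not tested. Whether those libraries served as control in the peak calling is not given. In hNABP2 KO repeat 2, RMRP had the highest -log10 q of 167 peaks, 229, with a fold of 6.24, and RN7SK the next, 189.5, with a fold of 6.28. RN7SL1 had a fold of 7.26 and a -log10 q of 8.44, and RN7SL2 a fold of 5.82 and a -log10 q of 3.95. RPPH1 had no peak there; the nearest was 248 kb away. The list medians were a fold of 4.47 and a -log10 q of 2.66, and 0.0424% of genes of at most 400 bases had a peak within 1 kb. That share is 4 of 9438 genes. The 5 RNAs were left out of these 9438, so the 4 counted are other genes.

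The other DRIP lists had no peak at the 5 genes. They held 13 peaks in hNABP2 KO repeat 1, and 173 and 107 peaks in WT repeats 1 and 2, with highest -log10 q values of 20.3, 6.61 and 5.76. The share of short genes with a peak was 0% in hNABP2 KO repeat 1, and 0.0212% and 0% in WT. The difference between hNABP2 KO and WT thus rests on 1 library, and its hNABP2 KO repeat does not show it. RMRP and RN7SK are the genes with both a ChIP peak in WT repeat 1 and a DRIP peak in hNABP2 KO repeat 2. RPPH1 had the strongest ChIP peak of the 3 and no DRIP peak.

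Genes that work with or beside these RNAs were sparse. Of 44 protein genes listed, 44 were in the table and had counts, and of 19 other Pol III transcripts 18 were in the table and 9 had a count. None passed the count filter of the main fits. With genes of 10 or more counts 42 to 44 of the 63 were tested, and without the filter 52 to 53; 0 were called in either direction. HEXIM1 and HEXIM2, the P-TEFb inhibitors that bind 7SK, had 127 and 118 counts over 18 libraries, and MEPCE and LARP7, which cap and bind 7SK, had 112 and 74. MAF1, a repressor of Pol III, had 108 and BRF1, a subunit of its initiation factor, had 99. RPP14 and RPP38, proteins of RNase P and RNase MRP, had 84 and 57, and SRP68 of the signal recognition particle had 33.

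At the promoters of these companions, hNABP2 ChIP repeat 1 had a peak at 27 of 44 protein-coding genes (61.4%), where 35.7% of all protein-coding genes had one. All 44 had run-on counts, whereas the 35.7% covers genes with or without counts, and the difference was not tested. By list these were 5 of 7 genes of the 7SK particle and P-TEFb (CCNT2, CDK9, HEXIM1, HEXIM2 and MEPCE), 12 of 20 of Pol III initiation and La, 6 of 11 of RNase P and MRP and 4 of 6 of the signal recognition particle. Repeat 2 had a peak at 4 of 44 (9.09%; 11.6% of all protein-coding genes), namely CDK9, SNAPC4, BRF1 and MAF1. CDK9, the kinase of P-TEFb, and SNAPC4, the largest subunit of SNAPc, had one in both repeats. BRF1 and MAF1 had a repeat 1 peak within 1 kb of the gene, but none annotated to their promoter. Among 19 other Pol III transcripts, 4 (21.1%) had a repeat 1 peak within 1 kb, RNU6-2, RNU6-9, RNU6ATAC and RNY5. Of the 9438 RefSeq genes of at most 400 bases, 3.25% had one, and the difference was not tested. In repeat 2, 0 of the 19 had a peak within 1 kb. The 4 peaks of repeat 1 lay 281 to 438 bases outside the gene, whereas the peaks at RPPH1, RN7SK and RMRP lay inside it.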

How the data were processed

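The deposited table holds raw counts per gene symbol, without normalization by the authors, for 18 run-on libraries. The deposited peak lists, in the layout MACS2 writes, give a fold (a ratio over local background), −log10 p and −log10 q per peak. The submitters' processing notes list MACS2 2.2.1, Bowtie2 2.3.5, cutadapt 1.18 and SAMtools, and the build hg38. They give no settings and no control libraries of the peak calling. Run-on counts were tested with edgeR 4.0.16 in R 4.3.3 (filterByExpr by group, TMM, quasi-likelihood F test, Benjamini-Hochberg over all genes tested, threshold 0.05). The genotypes with NTP shared 1 fit of 9 libraries and the other comparisons 1 fit of 18. Library sizes in these fits were sums over the filtered genes, so log2 fold changes are not on the CPM scale; the SE is the size of the log2 fold change over the square root of F. DESeq2 1.42.0 and limma 3.58.1 were run beside edgeR. RNAs that failed the filter were compared by exact permutation of log2 CPM, with 0.5 added to each count before scaling. The fits were also run on simulated data with equal depths and no difference between repeats. These libraries differ in both, so that run does not measure how the fits perform here.

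A peak was assigned to a gene when it overlapped the gene extended by 1 kb. Motifs were searched in RefSeq promoter windows. Named genes were the 5 RNAs, the companions with the most counts in each list, and the 3 genes most like RN7SK and RMRP. The members and lists were chosen with earlier results of these data known. With group means removed, same-numbered libraries correlated at 0.563 to 0.843 in the 9 with NTP and differently numbered ones at -0.690 to 0.119, so there the repeat numbers pair the libraries; the labels do not say what a number shares. The main fits, the permutations and the comparisons of CPM ranges did not use the repeat number. Alternatives covered the normalization, the filter, the tool, the repeat as a block, each library left out, and the peak rules. Total depth was 5272 to 164357 counts per library, and intervals cover counting error only. The peak lists give no depth.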

Additional observations from a re-analysis of the deposited data

How the results depend on the processing

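In 243 alternative fits of the 10 comparisons, 0 of the 5 RNAs were called. Any gene was called in 5 of these fits, all with the replicate block: 5 of 211 genes for with NTP against no NTP in hNABP1 KO and 3 of 211 for hNABP1 KO against WT without NTP. When genes of at least 10 counts were fitted with the block, the calls were 16 and 19 of 13447 genes for hNABP1 KO against WT and hNABP2 KO against hNABP1 KO with NTP, and 1 of 14907 for with NTP against no NTP in hNABP1 KO. The smallest adjusted p was 0.0730, for RN7SL1 with NTP against no NTP in hNABP1 KO with the replicate block (log2 fold change 3.36, SE 1.04), and the replicate block changed no call of these RNAs. Unadjusted, at most 4 of the 5 RNAs had a p under 0.05 in an alternative fit. That was the edgeR fit without the filter for hNABP1 KO against WT without NTP, where 206 of 22939 genes did. Peak counts at the loci stayed within 1.5 times of the main count under the peak rules tried.

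Directions were not stable, and the cause was not tested. RN7SK with NTP turned to 0.024 in hNABP2 KO against WT when genes of at least 10 counts were fitted with the replicate block (chosen after seeing the data). In hNABP1 KO against WT it turned to 0.090 without the filter, 0.25 with 10 or more counts, 0.18 with that filter and the block, and 0.17 without repeat 3, where RN7SL1 turned to -0.059. RN7SL2 with NTP against no NTP in hNABP2 KO was -0.13 by limma voom. RMRP with NTP against no NTP in WT was 0.31 with library totals, 0.11 by voom and 0.22 without repeat 3. Without repeat 3, RN7SK was 0.069 for with NTP against no NTP in WT, and, without NTP, 0.33 for hNABP2 KO and 0.83 for hNABP1 KO against WT. Without both WT no NTP repeat 3 and hNABP2 KO with NTP repeat 1 (chosen after seeing the data), the log2 CPM difference of RPPH1 with NTP against no NTP in hNABP2 KO was -0.69, and that of RN7SL2 in hNABP2 KO against WT with NTP was -1.84. In the same setting RPPH1 moved to -3.95 for with NTP against no NTP in WT, and, without NTP, to -2.76 for hNABP2 KO and -3.43 for hNABP1 KO against WT (exact permutation p = 0.2, the smallest that 3 against 2 libraries allow). CPM ranges then did not overlap for RPPH1 in the first and last of these (4.7% and 2.82% of genes with 10 or more counts). The same held for RN7SL1 in hNABP1 KO against WT without NTP (2.82%). With NTP, it held for RN7SL2 in hNABP2 KO against WT (4.88%) and against hNABP1 KO (5.71%). For with NTP against no NTP in hNABP2 KO it held for RN7SL2 (5.35%). The libraries left out held the lowest WT no NTP values of RPPH1 and RN7SL1. They also held the highest hNABP2 KO value with NTP of RN7SL2, so these separations follow from the choice.

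With each library left out in turn, with NTP, RN7SK ranged over -0.72 to 0.34 in hNABP2 KO against WT and -0.42 to 0.23 in hNABP1 KO against WT, and RN7SL1 over -2.18 to 2.97 and -0.33 to 1.96. For with NTP against no NTP, hNABP2 KO gave -0.25 to 7.28 for RN7SL1 and -2.33 to 2.49 for RN7SL2, and hNABP1 KO gave -0.68 to 0.14 for RN7SK. WT gave -3.43 to 0.37 for RN7SK, -2.39 to 2.96 for RN7SL1, -2.47 to 0.96 for RN7SL2 and -0.39 to 0.52 for RMRP. Without NTP, RN7SK ranged over -2.91 to 0.95 in hNABP2 KO and -3.36 to 0.44 in hNABP1 KO against WT. Where an arm was left with 2 libraries, the fit pooled their spread with the other groups.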
